A study of Mus musculus with 32 samples.

Results

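The genes described here encode potassium channels, voltage-gated calcium channels and voltage-gated sodium channels, together with their accessory subunits and the sulfonylurea receptor Abcc8. They were taken by symbol (Kcn, Cacna, Cacnb, Cacng, Scn followed by a digit, and Abcc8), and a gene was kept where its normalized expression score reached 20 in at least 1 sample. The symbol rule took 138 rows of the 22850 in the table, and 131 of them were kept, under 128 symbols, because Kcnb2, Kcnh8 and Scn8a each stood on 2 rows. Kcna4, Kcne1l, Kcnk15, Kcnk18, Kcnv1, Scn1a and Scn10a stayed below 20 everywhere. Just inside the limit, Kcne2 had a highest score of 26 and Kcna7 of 38, and just outside it Kcnk18 and Kcnv1 both had 16.

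Ion channels set the membrane potential of a cell. In pancreatic β cells, glucose metabolism raises ATP, which closes the ATP-sensitive potassium (KATP) channel formed by Kcnj11 (Kir6.2) and Abcc8 (SUR1). The membrane then depolarizes, voltage-gated calcium and sodium channels open, calcium entry triggers insulin release, and voltage-gated and calcium-activated potassium channels end each action potential. Endothelial cells and macrophages do not fire action potentials, and their potassium channels mainly set the driving force for calcium entry.

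All samples came from mice, 8 to 16 weeks old when the experiments began, carrying 3 transgenes, MIP-GFP; RIP-rtTA; TetO-VEGF-A (βVEGF-A; MIP-GFP), in which the rat Ins2 promoter drives the rtTA transactivator in β cells, the mouse Ins1 promoter drives GFP, and doxycycline (Dox) turns on human VEGF-A in β cells. Islet cells were sorted as β cells (GFP+ CD31- CD11b-), endothelial cells (ECs, CD31+) and macrophages (MΦs, CD11b+) without Dox (No Dox), after 1 week of Dox in the drinking water (1wk Dox), or 1 week after Dox was withdrawn (1wk WD). β cells had 4, 5 and 3 samples at the 3 time points, ECs had 4, 1 and 5, and MΦs had 4, 2 and 4, and each sample pooled islets of several mice. Every group carried the transgenes, so there was no group of mice without them, and No Dox served as the control.

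The endothelial and macrophage lineage genes were highest in the samples sorted for them. The summed score of 8 endothelial markers was 334479 to 511038 in EC samples and at most 45357 elsewhere, and that of the 8 measured macrophage markers was 182942 to 287374 in MΦ samples and at most 7033 elsewhere. The β cell samples were less uniform. The summed score of 8 β cell markers ranged from 499669 to 10883675 in them, and that of 10 pericyte and stroma markers from 1031 to 540417. No Dox replicates 1 and 2 of the β cells stood apart from the other β cell samples with 1031 and 1125 for the stroma list, against 153817 and 540417 in replicates 3 and 4, so counts called in β cells are also given without either pair, as are the fold changes of several single genes. Replicates 3 and 4 stood apart in turn by their acinar markers, which summed to 10498787 and 7956895, above their own β cell marker sums of 1654351 and 628011 and against at most 608085 in any other β cell sample. Acinar genes also varied in MΦs, with a summed score of 20672 to 10068914 in control samples, 939 to 2958 under Dox and 1408 to 174878 after withdrawal. Since the depth behind a score is not recorded, the precision of low scores is unknown, and in sorted bulk samples fewer cells of a type cannot be told apart from less RNA per cell.

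RefSeq promoters (GRCm38.p6, from 250 bases upstream up to the transcription start) were available for 92 of the 128 symbols. They are printed for the channel gene that stood furthest above the nearer of the other cell types in β cells (Scn9a), ECs (Kcnj15) and MΦs (Kcna3) at No Dox among those with a promoter, because these 3 genes anchor the cell type pattern below. Capitals mark the 6-base words CAGATG, an E-box form bound by NeuroD-type factors, and GAGGAA and CAGGAA, ETS-type words, on either strand.
Scn9a: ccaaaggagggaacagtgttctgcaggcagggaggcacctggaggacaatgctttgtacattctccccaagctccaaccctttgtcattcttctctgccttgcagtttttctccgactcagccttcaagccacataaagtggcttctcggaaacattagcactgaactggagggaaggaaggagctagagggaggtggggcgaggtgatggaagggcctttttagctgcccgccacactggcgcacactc
Kcnj15: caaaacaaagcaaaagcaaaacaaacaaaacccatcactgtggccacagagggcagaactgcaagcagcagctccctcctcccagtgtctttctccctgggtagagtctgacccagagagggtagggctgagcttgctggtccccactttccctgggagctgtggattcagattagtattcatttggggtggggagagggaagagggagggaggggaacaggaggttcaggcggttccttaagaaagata
Kcna3: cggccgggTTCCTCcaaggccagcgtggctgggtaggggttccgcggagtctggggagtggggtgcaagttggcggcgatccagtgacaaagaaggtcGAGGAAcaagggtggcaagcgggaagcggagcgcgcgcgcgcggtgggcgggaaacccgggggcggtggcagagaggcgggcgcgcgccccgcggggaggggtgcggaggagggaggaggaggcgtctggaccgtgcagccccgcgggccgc
These windows lie at chr2:66634963-66635212 (minus strand), chr16:95257308-95257557 (plus strand) and chr3:107035912-107036161 (plus strand). Kcna3 held GAGGAA at 2 places, and none of the 3 words was found in the Scn9a or Kcnj15 window. The coordinates of the windows are of GRCm38.p6, while all gene coordinates below are of mm9, the build of the scores, and the 2 cannot be set side by side. GAGGAA and CAGGAA differ only in their first letter. Among all 32851 promoters of the table, 14.4% held CAGATG, 23.3% held GAGGAA and 25.7% held CAGGAA. Among the 39 promoters of channel genes highest in β cells, these shares were 7.69%, 23.1% and 20.5%, and among the 9 of genes highest in MΦs they were 22.2%, 33.3% and 22.2%. Of the 4 of genes highest in ECs, 25% held CAGGAA and 0% either other word. A match describes letters in a window, and nothing about binding was measured.

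Channel genes made up far more of the β cell transcriptome than of the others. Their scores summed to 0.503 to 1.48% of the total in β cells (median 0.964%, 12 samples), 0.0623 to 0.107% in ECs (10 samples) and 0.0844 to 0.13% in MΦs (10 samples), so the lowest β cell sample was above the highest of the other cell types. The 2 lowest β cell values, 0.514% and 0.503%, were those of No Dox replicates 3 and 4, which had the highest acinar sums. Between 87 and 111 channel genes reached a score of 20 in a β cell sample, 56 to 68 in an EC sample and 63 to 84 in an MΦ sample. Relative to exon length, the highest mean scores per kilobase at No Dox were those of Kcnmb2 (18400), Abcc8 (10400), Kcnip1 (7430) and Kcnk16 (3670) in β cells. In ECs Kcnq1 led (1590), and in MΦs they were those of Kcnk13 (2060), Kcnq1 (1240) and Kcna3 (1110).

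To ask in which cell type each channel gene was most abundant, the 3 cell types were compared at No Dox by limma on log2(score + 1), with genes called at a 2-fold change or more and an adjusted p under 0.05. Of 120 channel genes tested, 78 were called between β cells and ECs (65 higher and 13 lower in β cells), where 37.7% of all genes were called, 21.2% higher and 16.5% lower. Between β cells and MΦs 82 were called (64 higher, 18 lower), beside 43.2% of all genes, 23.5% higher and 19.7% lower. Between ECs and MΦs 41 were called (15 higher and 26 lower in ECs), beside 33.5% of all genes, 15.9% higher and 17.6% lower. The 3 cell types were fitted together, so the SE of a gene between ECs and MΦs also carries its β cell spread. Higher than in both other cell types were 56 of the 120 (46.7%) in β cells, 6 (5%) in ECs, and 10 (8.33%) in the MΦs, beside 13.9%, 8.19% and 10.9% of all genes. The median log2 difference between β cells and ECs was 3.06 over the channel genes and 0.07 over all genes. A gene that entered the test only through the cell type where it is high had to differ, so these counts describe the 120 genes tested and not all 131.

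The pattern was measured again at 1wk WD, in samples that No Dox does not share. There 86 of 118 channel genes were called between β cells and ECs (39.9% of all genes), 93 between β cells and MΦs (46.2%) and 58 between ECs and MΦs (40.3%). Higher than in both other cell types were 66 in β cells (15.4% of all genes), 7 in ECs (8.06%) and 12 in MΦs (12.5%). Of the 56 genes highest in β cells at No Dox, 50 were again highest in β cells, as were 4 of 6 for ECs and 8 of 10 for MΦs, and none moved to another cell type. Without β cell No Dox replicates 3 and 4, 52 of 112 genes tested were highest in β cells (16.1% of all genes), 50 of them among the 56. Without replicates 1 and 2 it was 65 of 122 (14.1% of all genes), with 49 among the 56. At No Dox the fold changes of Kcnj11, Abcc8, Kcnk16, Kcnma1 and Scn9a against ECs and MΦs passed without either pair. Without replicates 1 and 2 they were 7.48, 9.24, 9.0, 8.22 and 9.61 against ECs, in that order, and 6.38, 6.92, 7.57, 4.97 and 8.21 against MΦs. Some other calls depended on a pair. For β cells minus ECs, Kcnmb4 did not pass without replicates 1 and 2 (-2.79, limma adjusted p = 0.094), and Kcnj2 (-0.80, 0.127) and Cacna2d4 (-1.21, 0.07) did not pass without replicates 3 and 4.

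**Figure D1:**
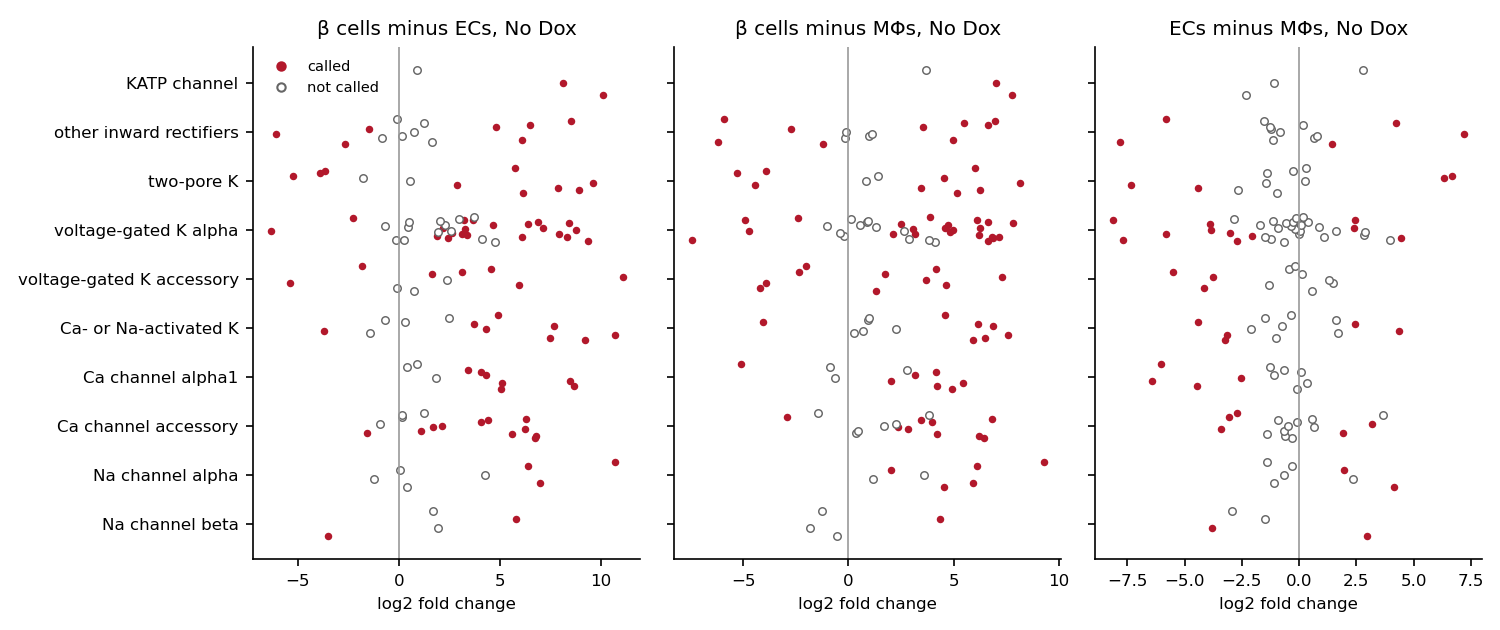
Fitted log2 fold changes of channel genes between cell types at No Dox (x axis), by channel family (y axis), with filled points for genes called and open points for the others. Most of the 78 and 82 called genes lie right of 0 in the β cell panels, while calls between ECs and MΦs fall on both sides.

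The KATP channel genes Kcnj11 and Abcc8, which lie next to each other on chromosome 7 (mm9 chr7:53352533-53355607 and chr7:53359893-53435403, both minus strand), were far higher in β cells than in the other cell types. Kcnj11, the pore, scored 2856, 2128, 1473 and 694 in the 4 β cell samples at No Dox, 1 to 12 in ECs and 1 to 91 in MΦs. Abcc8, the regulatory subunit that binds sulfonylurea drugs, scored 74162, 80045, 35955 and 16223 in β cells, 17 to 108 in ECs and 40 to 999 in MΦs. For both genes every β cell sample was above every other sample, and the highest MΦ value of each was in No Dox replicate 2, the MΦ library that also held the most insulin RNA (Ins1 at 27471). Against ECs the log2 fold changes were 8.12 ± 1.02 (SE) for Kcnj11 (limma adjusted p = 4.98e-05) and 10.07 ± 0.97 for Abcc8 (7.04e-06). Against MΦs they were 7.02 ± 1.02 (0.000126) and 7.75 ± 0.97 (4.15e-05).

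Kcnj8 (Kir6.1), the KATP pore of vascular smooth muscle and pericytes, behaved differently. It scored 5, 8, 499 and 1971 in the β cell samples at No Dox, 37 to 53 in ECs and 1 to 19 in MΦs. The 2 high β cell samples were the 2 with high stroma scores, the groups overlapped, and β cells did not pass the test against ECs (log2 fold change 0.90 ± 1.65, limma adjusted p = 0.678) or MΦs (3.69 ± 1.65, 0.078). Without replicates 3 and 4 the log2 fold change of Kcnj8 between β cells and ECs was -2.64 (adjusted p = 0.0284), and without replicates 1 and 2 it was 4.44 (0.00327).

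Among two-pore potassium channels, which carry background currents, 11 were tested at No Dox, of which 5 were highest in β cells, 1 in ECs, and 1 in the MΦs. This count and those of the families below stand beside 13.9%, 8.19% and 10.9% of all genes highest in each cell type, and no family was tested against another. Kcnk16 (TALK-1, chr14:21081978-21088384), a background channel of islet cells, scored 4554, 4271, 2722 and 1371 in β cells, against 1, 2, 1 and 16 in ECs and 1 to 77 in MΦs. No β cell sample overlapped with the others, and the log2 fold changes were 9.59 ± 1.13 against ECs and 8.16 ± 1.13 against MΦs (limma adjusted p = 3.03e-05 and 8.57e-05). Kcnk10 (TREK-2), named after its values were seen, ranged from 104 to 3275 in β cells and was at 1 in all 4 EC samples. Kcnk3 (TASK-1), an acid-sensitive channel, had instead a higher mean in ECs (1210 ± 64.3, SD, n = 4) than in β cells (474 ± 318) and was low in MΦs (26.2 ± 35.5). The difference between ECs and β cells did not pass the test (log2 -1.75 ± 0.83 for β cells minus ECs, limma adjusted p = 0.102) and passed without β cell replicates 3 and 4 (-2.79, 0.0255), whereas ECs and MΦs differed (6.31 ± 0.83, 6.59e-05).

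Of 13 other inward rectifiers 4 were highest in β cells, 2 in ECs, and 2 in the MΦs, where the last 2 counts are near the shares of all genes. Kcnj6, a G protein-gated channel named after its values were seen, scored 5991, 7231, 4042 and 2354 in β cells and 10 to 13 in ECs. Kcnj15 (Kir4.2) was the leading EC gene of the set, described with the vascular genes below.

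Voltage-gated potassium channels, which repolarize the membrane, held 34 tested rows of pore-forming genes, with Kcnb2 and Kcnh8 on 2 rows each, of which 16 were highest in β cells, 2 in MΦs and none in ECs. Kcnf1 (Kv5.1), a modulatory subunit outside the symbols of this family and named after its values were seen, was also highest in β cells, at 202, 68, 63 and 1 at No Dox, against 1 in every EC and MΦ sample. It entered the test only through its β cell scores, so this call carries no weight of its own. At 1wk WD Kcnf1 scored 1 to 24 in β cells and did not enter the test of cell types. Kcnb2, a delayed rectifier named after its values were seen, ranged from 3316 to 14021 in β cells and from 12 to 40 in ECs on its main row. Kcnh2 (ERG1) and Kcnh6 (ERG2), of the ether-a-go-go family, had means of 1400 ± 567 and 3690 ± 1750 in β cells. In ECs they averaged 8.75 ± 3.4 and 136 ± 33.4, and in MΦs 23.2 ± 19.4 and 151 ± 123, so both lay above the other cell types without overlap. Kcnh8 (ELK1) scored 902, 1530, 600 and 613 in β cells and at most 23 in any other No Dox sample (log2 fold changes 8.39 ± 0.81 and 7.83 ± 0.81).

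Kcnq1, a slow delayed rectifier, was well expressed in all 3 cell types. It scored 6155, 9906, 5835 and 6651 in β cells, 3982 to 5568 in ECs and 3158 to 5390 in MΦs. The β cell samples lay just above the others, by 0.52 ± 0.22 on the log2 scale against ECs (limma adjusted p = 0.0669) and 0.90 ± 0.22 against MΦs (0.00401), less than the 2-fold needed for a call. Scn8a (Nav1.6), a sodium channel, was likewise at 3100 ± 1290 in β cells and 2790 ± 338 in ECs (log2 0.06 ± 0.29, adjusted p = 0.879), and lower in MΦs at 730 ± 194.

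Accessory subunits change the gating or placement of the voltage-gated pores. Kcnip1 (KChIP1), a calcium-binding partner of Kv4 channels and named after its values were seen, scored 66344, 83849, 24980 and 9048 in β cells, 6 to 24 in ECs and 135 to 431 in MΦs. Of the 10 accessory genes tested, 4 were highest in β cells and 2 in MΦs.

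Of 12 calcium- or sodium-activated potassium channel genes, whose products couple ion entry to repolarization, 6 were highest in β cells. Kcnma1 (BK), the large-conductance pore, scored 21805, 23674, 8669 and 4143 in β cells, 7 to 48 in ECs and 66 to 410 in MΦs. Its accessory subunit Kcnmb2 (chr3:31801429-32099102) scored 80700, 97497, 37413 and 13216 in β cells, 11 to 40 in ECs and 80 to 1066 in MΦs. Both were lowest in β cell replicate 4, and no β cell sample overlapped with another cell type. The log2 fold changes against ECs were 9.18 ± 0.75 for Kcnma1 and 10.70 ± 0.84 for Kcnmb2 (limma adjusted p = 2.18e-06 and 1.64e-06). Kcnn3 (SK3), a small-conductance channel known from endothelium and neurons, was also highest in β cells, at 5400 ± 1950, with 400 ± 86.2 in ECs and 79.2 ± 45.1 in MΦs.

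Of 10 pore-forming calcium channel genes, 6 were highest in β cells and 1, Cacna1s, in MΦs. Cacna1c (Cav1.2) scored 13920, 13453, 11830 and 25161 in β cells, 311 to 651 in ECs and 100 to 680 in MΦs. Cacna1a (Cav2.1, the P/Q-type channel) scored 19887, 21323, 10523 and 6139 in β cells, 315 to 590 in ECs and 270 to 1207 in MΦs. Cacna1c was highest, and Cacna1a lowest, in β cell replicate 4. That sample had the highest stroma sum (540417) and the lowest β cell marker sum (628011) at No Dox, and the part of stroma in its Cacna1c score was not tested. Neither gene overlapped between β cells and the others, with log2 fold changes of 5.10 ± 0.51 and 5.04 ± 0.51 against ECs. Cacna1d (Cav1.3), the other L-type pore of β cells, scored 25533, 30081, 11586 and 6082 in β cells, 19 to 96 in ECs and 3204 to 4424 in MΦs. MΦs thus lay between the other cell types, with log2 fold changes of 2.01 ± 0.53 for β cells against MΦs (limma adjusted p = 0.00695) and -6.44 ± 0.53 for ECs against MΦs (1.35e-06). Without β cell replicates 1 and 2 the first difference was 1.15 and did not pass (0.0786). Exons of Cacna1d share bases with Chdh on the opposite strand, and strand was not stated to be kept, so reads of the 2 genes cannot be told apart there.

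Of 15 accessory calcium channel subunits 8 were highest in β cells. Cacnb2, a β subunit that carries the pore to the membrane, scored 17446, 19462, 11284 and 7990 in β cells, 131 to 216 in ECs and 1337 to 2594 in MΦs, again with MΦs in between. Cacna2d1, the subunit bound by gabapentin, was at 15300 ± 3170 in β cells, 150 ± 68.6 in ECs, and 268 ± 261 in the MΦs. Cacnb3, which limits calcium signals in β cells, differed less, with 1060 ± 300 in β cells, 330 ± 69 in ECs, and 228 ± 117 in the MΦs.

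Among sodium channels, Scn9a (Nav1.7, chr2:66318137-66473009), a sodium channel of mouse β cells whose exons share bases with Gm13629 on the other strand, stood furthest of all channel genes tested above whichever other cell type was nearer to it. It scored 8361, 8768, 3425 and 1130 in β cells, 1, 1, 1 and 4 in ECs and 1 to 81 in MΦs, with log2 fold changes of 10.67 ± 1.09 and 9.27 ± 1.09 (limma adjusted p = 1.06e-05 and 2.65e-05). Since 1 is the lowest score in the table, the fold against ECs depends on the pseudocount and is no bound, and Kcnip1 (log2 11.06) and Kcnmb2 (10.70) lay further above ECs. Scn3a (Nav1.3) scored 4284, 4696, 3549 and 2074 in β cells, 22 to 31 in ECs and 17 to 219 in MΦs.

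**Figure D2:**
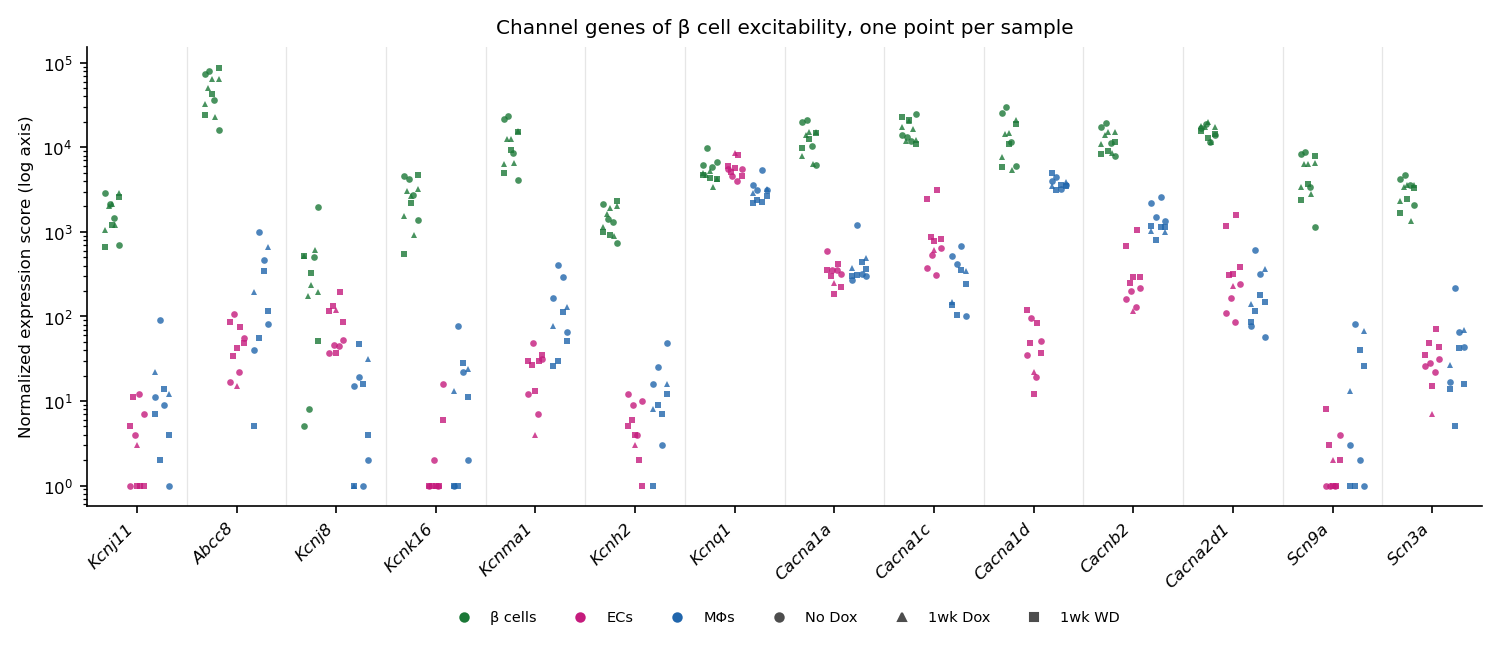
Normalized expression scores (log axis) of 14 channel genes in each of the 32 samples, with color for the cell type and marker shape for the time point. β cell points lie above the others for Kcnj11, Abcc8, Kcnk16, Kcnma1 and Scn9a, while Kcnq1 overlaps among the cell types over the 3 time points, and Kcnj8 spreads from 5 to 1971 in β cells.

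In ECs, 6 channel genes were higher than in both other cell types at No Dox, among them Kcnj15, Kcnk5, Kcnmb4 and Cacna2d4. Kcnj15 (chr16:95479165-95521867) scored 927, 1089, 1303 and 1046 in ECs, 5 to 58 in β cells and 4 to 9 in MΦs, without overlap (log2 fold changes 6.09 lower in β cells, limma adjusted p = 9.71e-06, and 7.22 ± 0.62 for ECs against MΦs, 1.79e-06). Kcnk5 (TASK-2), a background channel sensitive to alkaline pH, scored 2540, 1700, 1315 and 1683 in ECs, 3 to 159 in β cells and 2 to 41 in MΦs. Kcnmb4, a BK subunit, was at 93.5 ± 57.5 in ECs, 11.2 ± 16.6 in β cells and 9.0 ± 16 in MΦs, while its pore Kcnma1 was at only 24.5 ± 18.8 in ECs. Kcnj2 (Kir2.1), the classical endothelial inward rectifier, averaged 573 ± 144 in ECs and 1340 ± 376 in MΦs. That difference did not pass the test (log2 -1.22 ± 0.49 for ECs minus MΦs, limma adjusted p = 0.0617), and both were higher than β cells, at 255 ± 208.

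In MΦs, 10 channel genes were highest at No Dox, led by Kcna3, Kcnj10, Kcnj9, Cacna1s and Kcnq3. Kcna3 (Kv1.3, chr3:106839080-106841047), the voltage-gated channel of leukocytes, scored 2779, 1653, 2219 and 2114 in MΦs, 1 to 68 in β cells and 4 to 15 in ECs (log2 fold changes -7.45 ± 0.92 for β cells and -7.70 ± 0.92 for ECs against MΦs). Kcnj10 (Kir4.1), known as a glial channel, scored 3074, 2751, 1717 and 2581 in MΦs, 8 to 131 in β cells and 3 to 20 in ECs. Kcnj9, next to Kcnj10 on chromosome 1, had 439 to 522 in MΦs and at most 17 in other No Dox samples. Kcnk13 (THIK-1), a background channel of microglia and macrophages, had the highest score per kilobase in MΦs, with 7573, 4974, 6866 and 6200, against 203 to 424 in β cells and 25 to 83 in ECs.

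The remaining leukocyte channels followed. Kcnn4 (KCa3.1), the calcium-activated channel that supports calcium entry in leukocytes, was at 930 ± 117 in MΦs, 116 ± 135 in β cells and 45.2 ± 16.8 in ECs. Kcnab2, a Kv1 β subunit, was at 2140 ± 402 in MΦs, 144 ± 128 in β cells and 121 ± 26.9 in ECs. Kcnk6 (TWIK-2), an efflux channel studied in the inflammasome, was at 2000 ± 143 in MΦs, 762 ± 63.9 in ECs and 120 ± 148 in β cells, and MΦs did not pass the test against ECs (log2 -1.39 ± 0.89 for ECs minus MΦs, limma adjusted p = 0.236). That SE is shared with β cells. Within groups, the SD of log2(score + 1) of Kcnk6 was 1.56 among β cell samples, against 0.18 (ECs) and 0.11 (MΦs). The failed test at No Dox therefore does not show that ECs and MΦs were alike. At 1wk WD the difference between ECs and MΦs was -1.51 ± 0.27 and was called (0.000311). Kcne3, a partner of Kcnq1, was higher in ECs (783 ± 154) and MΦs (286 ± 66.4) than in β cells (29.5 ± 38.5). Kcnq1 itself was present in all 3.

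Genes of membrane excitability outside the symbol rule were taken as a list of 24, of which 23 were measured. At No Dox 12 of the 23 were higher and 5 lower in β cells than in ECs, beside 21.2% and 16.5% of all genes, and 11 were higher and 3 lower than in MΦs, beside 23.5% and 19.7%. The leak channel Nalcn and its partner Unc80 had log2 fold changes of 10.22 and 9.21 against ECs. The proton channel Hvcn1 and the cation channel Trpm2, both of phagocytes, were higher in MΦs than in β cells, with log2 fold changes of -5.01 and -3.82 for β cells minus MΦs.

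To ask whether VEGF-A induction and withdrawal changed the channel genes within a cell type, time points were compared by limma. In β cells limma called none of 123 channel genes when 1wk Dox was set against No Dox (0.0122% of all genes), and 15 had an unadjusted p under 0.05 (6.99% of all genes). None was called after withdrawal against No Dox (0% of all genes; 4 channel genes and 8.17% of all genes at an unadjusted p under 0.05). Against 1wk Dox, withdrawal also gave none (0%; 9 channel genes and 6.31% of all genes). Kcnj11 averaged 1790 ± 922, 1880 ± 759 and 1480 ± 994 over the time points in order (n = 4, 5 and 3), and Abcc8 51600 ± 30600, 46800 ± 18700 and 51400 ± 32500, so the time points overlapped for both. Cacna1d averaged 18300 ± 11300, 12700 ± 6280 and 11900 ± 6730, and Scn9a 5420 ± 3750, 5090 ± 1850 and 4680 ± 2880. The SE of these genes' log2 changes at 1wk Dox was 0.48 to 0.59.

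Kcnn3 and Kcnmb4 are described here because they had 2 of the 3 lowest unadjusted p values in β cells at 1wk Dox, and so were chosen after their values were seen. The other of the 3 was Kcnh1, with a log2 fold change of -1.51 ± 0.37 that did not pass (limma adjusted p = 0.328). Kcnn3 scored 6959, 7150, 4223 and 3277 at No Dox, 1835, 3025, 3502, 1414 and 2780 under Dox, and 4395, 5804 and 5647 after withdrawal. The 1wk Dox samples were low and overlapped No Dox in a single sample, and the log2 fold change of -1.11 ± 0.31 did not pass (limma adjusted p = 0.424). Kcnmb4 had the largest change at 1wk Dox, 3.70 ± 0.83 (adjusted p = 0.298), from 5, 1, 36 and 3 in the controls to 105, 64, 55, 192 and 57, without overlap, and after withdrawal it was at 38, 13 and 20. Without No Dox replicates 3 and 4 its change at 1wk Dox was 4.61 and passed (limma adjusted p = 0.00687). At No Dox Kcnmb4 was highest in ECs. In β cells 8 of 8 endothelial markers had a higher mean at 1wk Dox, none called, and their summed score was 1398 to 6483 at No Dox. Under Dox it was 45357, 15356, 20598, 5221 and 1235 in replicate order, which was not the order of the Kcnmb4 scores. The part of endothelial RNA was not tested.

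The spread among β cell samples was wide. The median SD of log2(score + 1) within groups was 1.22 over the tested channel genes and 0.61 over all genes in β cells, 0.69 and 0.28 in ECs, and 0.91 and 0.35 in MΦs. Several channel genes were high and low in the same No Dox samples as markers of stroma. In β cells at 1wk Dox 10 of the 10 pericyte and stroma markers had a higher mean than at No Dox and none was called, as was so at 1wk WD. Scn7a, a sodium-sensing channel of glia, scored 155, 24, 7175 and 22657 at No Dox, 1782 to 3945 under Dox, and 13074, 17049 and 975 after withdrawal. The pericyte receptor Pdgfrb scored 80, 66, 13692 and 49477 in the same No Dox samples and 48280, 40295 and 3980 at 1wk WD. Kcna1 and Kcna6, Kv1 channels of nerve that were picked after their values were seen, scored 84, 1, 2487 and 7802, and 13, 1, 374 and 2601, at No Dox. The Schwann cell factor Sox10 scored 1, 21, 261 and 1161 there. The low samples were replicates 1 and 2 for each of these genes. The summed score of all 7 Schwann cell and nerve markers was 1358 to 4147 over the same 4 samples. Acinar markers were high in replicates 3 and 4 as well, and all 7 had a lower mean at 1wk Dox and at 1wk WD than at No Dox, with none called. The part of other cells in these scores was not tested.

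Without No Dox replicates 3 and 4, 15 channel genes were called in β cells under Dox (14 higher, 1 lower) and 14 after withdrawal (13 higher, 1 lower), where 7.36% and 8.74% of all genes were called. Without replicates 1 and 2, limma called 0 and 0 channel genes beside 0.487% and 0.0853% of all genes, and 20 and 9 had an unadjusted p under 0.05, beside 7.42% and 6.41% of all genes. These exclusions were chosen after the data were seen. The genes called higher were led by Kcnt2, a sodium-activated potassium channel named after its values were seen, as was Kcna5, at log2 7.57 and 7.78, and included Scn7a (5.31 and 6.59), Kcnj8 (5.37 and 4.81), Kcna5 (5.52 and 5.51) and Kcna1 (5.20 and 7.61), with Kcnmb4 called at 1wk Dox, while Kcnn3 was the gene lower at 1wk Dox (-1.57) and Kcnj6 that at 1wk WD (-1.35). Neither Kcnj11 nor Abcc8 was among them. The No Dox samples kept here and those left out differed in both the stroma and the acinar sums, and the part of either was not tested. Alpha cell markers summed to 36509 to 73449 in β cells at No Dox, 12774 to 100767 under Dox and 5395 to 28612 after withdrawal, where they did not overlap No Dox, with 5 of 6 lower and none called. Macrophage markers summed to 567 to 4503, 1269 to 5167 and 4566 to 7033 in the same order, and after withdrawal lay above No Dox without overlap. The part of either list was not tested.

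**Figure D3:**
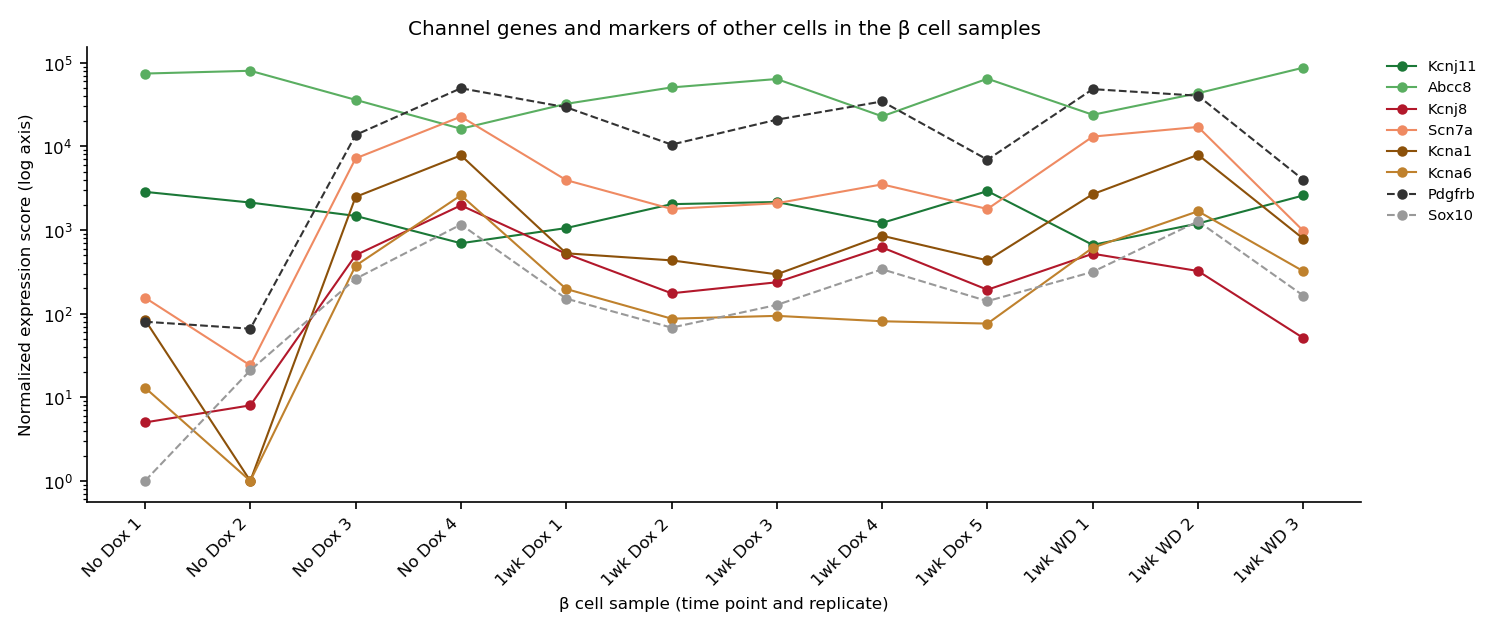
Normalized expression scores (log axis) of 6 channel genes and the markers Pdgfrb and Sox10 (dashed) in the 12 β cell samples, with lines joining the points of a gene and no order implied among replicates. Scn7a, Kcnj8, Kcna1 and Kcna6 are low where Pdgfrb is low (80 and 66 in No Dox replicates 1 and 2), and Kcnj11 and Abcc8 do not share that pattern.

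In ECs, 4 of 65 channel genes were called at 1wk WD against No Dox (3 higher, 1 lower), where 1.76% of all genes were, 1.28% higher and 0.487% lower. Kcne4, an inhibitory subunit of Kv channels (chr1:78813502-78816599), scored 31, 54, 29 and 108 at No Dox and 419, 176, 395, 694 and 179 at 1wk WD. No sample overlapped, and the log2 fold change was 2.73 ± 0.47 (limma adjusted p = 0.0113). Cacna2d1 scored 109, 167, 85 and 239 at No Dox and 1180, 310, 321, 1570 and 385 at 1wk WD, highest in replicates 1 and 4 (2.08 ± 0.50, 0.0373). Scn7a scored 59, 38, 24 and 77, then 181, 102, 138, 318 and 127 (1.80 ± 0.40, 0.0282). Kcnk5 fell, from 2540, 1700, 1315 and 1683 to 909, 960, 713, 813 and 893, again without overlap (-1.04 ± 0.17, 0.00946).

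Without single EC libraries the number called ranged from 1 to 7, and Kcne4 passed in all 9 such fits. The number was 1 without No Dox replicate 1 (76 of all genes) and 2 without No Dox replicate 2 (138) or 3 (75) or 1wk WD replicate 1 (246). It was 7 without 1wk WD replicate 2 (311), and the main fit called 250 of all genes. Scn7a and Cacna2d1 both lost the call without No Dox replicate 1, 2 or 3 or 1wk WD replicate 1, Scn7a also without 1wk WD replicate 3 and Cacna2d1 without 1wk WD replicate 4, and Kcnk5 lost it without No Dox replicate 1 or 1wk WD replicate 3. With no filter on low scores none of the 4 passed, and with no trend only Kcnk5 did, the adjusted p of Kcne4 reaching 0.116. Cacna1c and Cacnb2 also had high values in EC replicates 1 and 4 at 1wk WD, with log2 fold changes of 1.57 ± 0.41 (limma adjusted p = 0.0535) and 1.32 ± 0.39 (0.0825) that did not pass. Outside the symbol rule, the KATP regulatory subunit of vascular cells Abcc9 (1.92 ± 0.40, 0.0221) and the chloride channel Ano1 (1.74 ± 0.40, 0.0294) were called higher, 2 of 16 listed genes tested. The pericyte and stroma list moved with these genes, with 9 of its 9 tested genes higher and 4 called, and a summed score of 5637 to 12607 at No Dox and 16858 to 70818 at 1wk WD. Rgs5, a pericyte gene, scored 40996 and 63203 in 1wk WD replicates 1 and 4 against 14734 to 18398 in the others. The part of pericyte RNA in the EC changes was not tested. Acinar genes moved the other way, with 5 of 6 tested called lower and a summed score of 55846 to 1505240 at No Dox and 646 to 53041 at 1wk WD. Endothelial markers summed to 415293 to 449681 at No Dox and 334479 to 381790 at 1wk WD, lower without overlap. The part of the acinar and endothelial shifts was not tested.

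In MΦs, 4 of 93 channel genes were called at 1wk Dox against No Dox (1 higher, 3 lower), beside 2.26% of all genes, 1.61% higher and 0.653% lower. After withdrawal 2 were called against No Dox (1 higher, 1 lower), beside 0.626% of all genes, 0.42% higher and 0.206% lower. Withdrawal against 1wk Dox gave no limma call (0.0866% of all genes; 8 channel genes and 9.7% of all genes at an unadjusted p under 0.05). Cacnb3 (chr15:98462651-98474961) scored 335, 322, 131 and 122 at No Dox, 1315 and 1574 under Dox, and 1098, 595, 571 and 732 after withdrawal. Both later time points lay above No Dox without overlap, with log2 fold changes of 2.81 ± 0.43 (limma adjusted p = 0.00776) and 1.82 ± 0.35 (0.0314). Kcnq3, an M-current channel, scored 671, 855, 581 and 676 at No Dox, 129 and 275 under Dox, and 314, 185, 260 and 281 after withdrawal. It lay below No Dox in every later sample (-1.86 ± 0.34, 0.0125, and -1.43 ± 0.28, 0.0314). At 1wk Dox neither gene passed with no trend, with a replicate block or with only the 2 groups compared. At 1wk WD neither passed with no trend or with no filter on low scores, Cacnb3 did not pass with only the 2 groups compared, and Kcnq3 did not pass with a replicate block.

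Cacna1s and Kcnj9 fell at 1wk Dox. Cacna1s, the skeletal muscle L-type pore, scored 276, 302, 576 and 388 at No Dox, 157 and 114 under Dox, and 200 to 377 after withdrawal (-1.46 ± 0.37, limma adjusted p = 0.0433). Kcnj9, a G protein-gated inward rectifier, scored 439, 476, 522 and 471, then 204 and 253, then 288 to 394 (-1.06 ± 0.25, 0.0329). With both groups of 4 at 1wk WD and No Dox, neither gene passed (-0.33 ± 0.30, adjusted p = 0.606, and -0.42 ± 0.20, 0.308). At 1wk Dox neither passed with no trend, with a replicate block or with only the 2 groups compared, and Cacna1s did not pass with no filter. The 1wk Dox calls rest on 2 samples, and a fit without either leaves 1, so no count is given for it. Over all alternatives, these fits included, the log2 fold change ran from 2.57 to 3.05 for Cacnb3, -2.46 to -1.32 for Kcnq3, -1.69 to -1.23 for Cacna1s and -1.24 to -0.91 for Kcnj9. Without No Dox replicate 1, 2 channel genes were called at 1wk Dox, beside 236 of all genes (340 in the main fit). For withdrawal against No Dox, 0 were called without No Dox replicate 4 (95 of all genes) or 1wk WD replicate 2 (23), 3 (23) or 4 (33). The count was 1 without No Dox replicate 1 (71) or 2 (101) or 1wk WD replicate 1 (123), and the main fit called 94 of all genes. Both 1wk Dox MΦ samples belong, by the library identifiers in the table header, to a set of 4 that also holds the 1wk Dox EC sample and β cell 1wk WD replicate 3, and for MΦs this set and the time point cannot be told apart. Acinar markers moved with the same contrast, with 7 of 7 lower and 3 called, and at 1wk WD, where Cacnb3 and Kcnq3 were called, 7 of 7 were again lower with none called, and the median of their sum was 2083.5, against 872030.5 at No Dox. Schwann cell and nerve markers summed to 380 to 519 at No Dox, 743 to 801 under Dox and 649 to 969 after withdrawal, without overlap with No Dox, and none was called. Endothelial markers summed to 1288 to 1822 at No Dox, 2874 to 3518 under Dox and 1725 to 2519 after withdrawal, with 7 of 8 higher under Dox and none called. Macrophage markers summed to 182942 to 215944, 245026 to 287374 and 222124 to 241503, with 6 of 8 higher under Dox and 1 called. The part of these lists was not tested. Among the other leukocyte channels, Kcna3 was at 2190 ± 463, 1700 ± 419 and 1740 ± 334 and Kcnk13 at 6400 ± 1110, 6160 ± 175 and 5160 ± 1580 over the 3 time points, and neither passed the test.

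**Figure D4:**
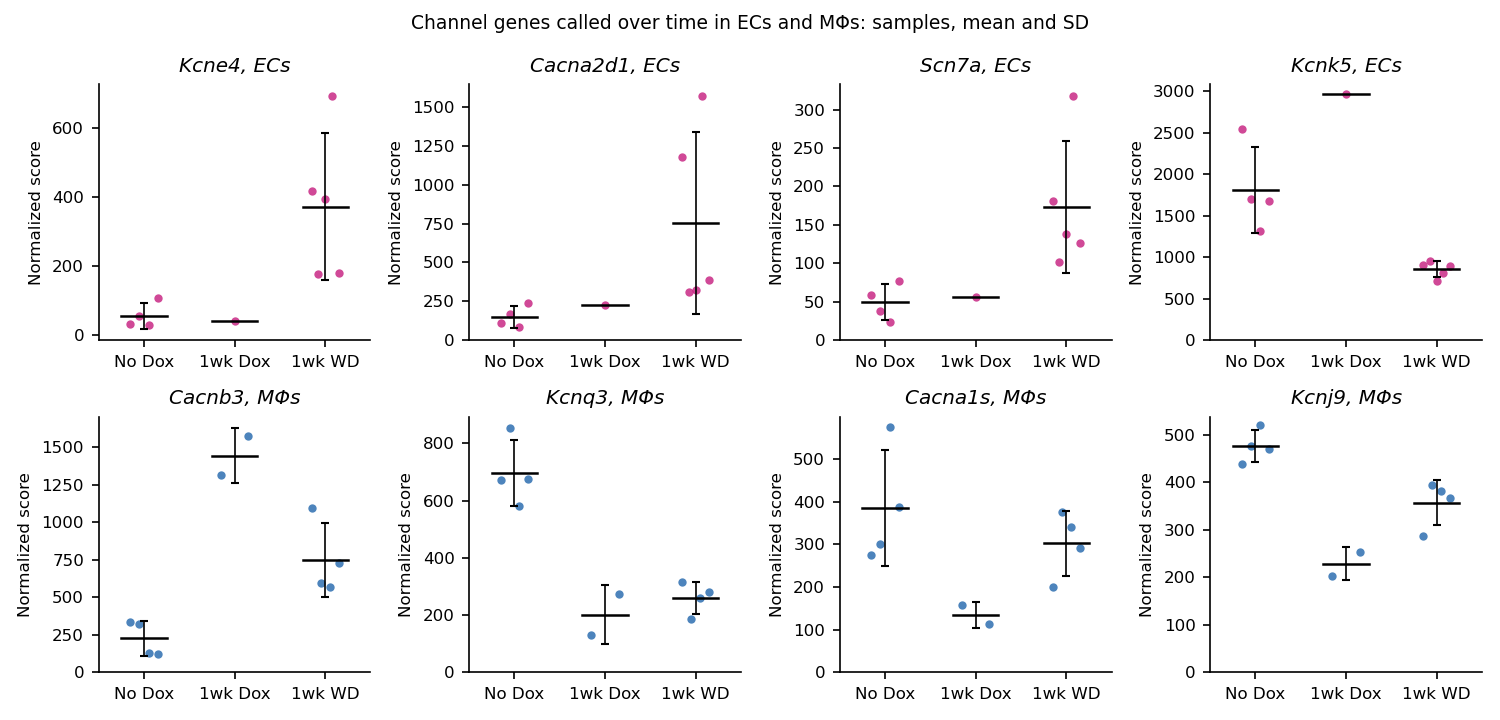
Normalized expression scores of the 4 channel genes called in ECs (top) and the 4 called in MΦs (bottom) at each time point, with a point per sample, a bar for the mean and an error bar for the SD. In ECs, Kcne4 reaches 694 at 1wk WD and Kcnk5 at most 960, and in MΦs Cacnb3 is at 1315 and 1574 at 1wk Dox while Kcnq3 is below its No Dox values.

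Whether the responses differed between cell types was tested directly. For 1wk WD against No Dox, MΦs and ECs differed in 2 of 100 channel genes (1.4% of all genes). Cacnb3 rose more in MΦs, by 1.89 on the log2 scale (limma adjusted p = 0.0338), with its EC means at 330 and 311. Cacnb2 differed by -2.12 (0.0418), with means of 1900 ± 588 and 1070 ± 176 in MΦs and of 177 ± 39.1 and 517 ± 352 in ECs. With no trend neither difference passed (adjusted p = 0.0512 for Cacnb3 and 0.0705 for Cacnb2). Between MΦs and β cells limma called 0 of 124 channel genes for withdrawal (0% of all genes; 5 channel genes and 7.02% of all genes at an unadjusted p under 0.05) and 0 of 121 for Dox (0%; 5 and 5.43%). Between ECs and β cells it called 0 of 122 for withdrawal (0.0913%; 11 and 13.1%). The changes of Kcne4, Cacna2d1, Scn7a and Kcnk5 in ECs and of Kcnq3 in MΦs were therefore not shown to differ between cell types.

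The single EC sample at 1wk Dox allowed no test. Of 62 channel genes with a score of 20 or more there or in the No Dox mean, 8 were higher and 13 lower than the No Dox mean by 2-fold or more, beside 5.43% and 5.27% of all genes in each direction. Within EC groups the median SD of log2(score + 1) was 0.69 over channel genes and 0.28 over all genes, so these shares are not like for like. By its library identifier the sample belongs to the set described above for MΦs, and for ECs this set and 1wk Dox cannot be told apart. Kcnj2 scored 3044 against 442 to 724 at No Dox, Kcne3 3019 against 636 to 931, Kcnh1 694 against 201 to 288, and Kcna5 209 against 28 to 90, the last 2 being named after their values were seen. Among the genes below their No Dox range were Kcnh6, at 40 against 94 to 175, Cacna2d4, at 27 against 58 to 105, and Abcc8, Kcnma1 and Scn3a, at 15, 4 and 7 against 17 to 108, 7 to 48 and 22 to 31. At 1wk WD Kcnj2 was at 476 to 1272 and Kcne3 at 519 to 994. Kcnk5, which was low at 1wk WD, was at 2969 in this sample, above its No Dox range. The summed acinar markers of this sample, at 203, were the lowest of the 10 EC samples, and its pericyte and stroma markers summed to 14469.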

How the data were processed

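RNA of sorted islet β cells, ECs and MΦs was amplified and sequenced with 50 bp paired-end reads. Per the study's methods and the submitters' processing notes, the authors aligned reads to mm9 with TopHat2 2.0 and normalized gene expression by TMM in Avadis NGS. The deposited values are normalized expression scores, written by the authors as whole numbers with a lowest score of 1. They are no counts, so no count model was used and the depth of a sample is unknown. Samples were grouped by the labels. Of the 38 columns of sample values 32 were used, and 6 matched no sample of this series. Chdh and some other genes share exonic bases with 19 channel genes.

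A gene entered a fit where its mean score reached 20 in a fitted group. limma 3.58.1 (R 4.3.3), run with a trend of the spread on mean expression, tested log2(score + 1), with Benjamini-Hochberg adjustment over all genes tested, in 7 comparisons of time points, 6 of cell types and 4 of responses. Fold changes are on that scale and understate changes of low genes. A call needed a 2-fold change and an adjusted p under 0.05. The script was tested on simulated data. Nothing beyond the labels separates replicates by animal, since islets were pooled, so p-values measure the spread between these samples. Named genes are those of textbook roles, the 5 called with the largest rise and fall per comparison, and the 5 furthest above both other cell types. Other genes are said to be chosen after their values were seen. Some of the channel genes are not reported here. The members and gene lists were chosen with earlier results of these data known. Alternatives were median-of-ratios scaling, a pseudocount of 20, no filter, no trend, a replicate block, fits of the 2 groups alone, and leaving out single samples.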

Additional observations from a re-analysis of the deposited data

Results flagged for a closer look

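Of 190 tests for a sample that stood apart from its group, 8 found one, and chance gives about 1 in 20. Cacna1a scored 1207 in MΦ No Dox replicate 2, against 270 to 317 in the others, and that sample also had the highest insulin and acinar scores of the MΦs. Scn7a scored 4 in MΦ No Dox replicate 3 (166 to 192 in the others). In MΦs at 1wk WD, replicate 1 was low for Kcne4 (4, against 23 to 32) and Kcnj10 (2667, against 3075 to 3152), and replicate 2 was low for Cacnb2 (804, against 1135 to 1176). β cell 1wk Dox replicate 4 had the lowest Cacna2d1 (11701, against 17331 to 20222) and the highest Kcna3 (172, against 1 to 4). Its lymphocyte markers summed to 3868, against 37 to 205 in the other 1wk Dox β cell samples, and its macrophage markers to 5167, against 1269 to 2483. The part of leukocyte RNA was not tested. Kcnma1 scored 13 in EC 1wk WD replicate 3, against 27 to 35.

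The response to withdrawal differed between MΦs and ECs for Cacnb3, by 1.89 on the log2 scale (limma adjusted p = 0.0338), and for Cacnb2, by -2.12 (0.0418), and with no trend neither passed (0.0512 and 0.0705).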

How the results depend on the processing

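Counts called between cell types stayed within 1.5 times under every alternative run, as did all counts under median-of-ratios scaling and a pseudocount of 20. Without β cell No Dox replicates 3 and 4 the counts were 15 (1wk Dox) and 14 (1wk WD), beside 7.36% and 8.74% of all genes. In the same setting 3 genes reversed between β cells and ECs, Kcna3 to -1.58, Kcnj8 to -2.64 and Kcnn4 to -1.56. Without the trend the count fell to 0 for MΦs under Dox, 0 after withdrawal and 0 for the MΦ minus EC difference, and to 1 for ECs. In that order 52, 11, 148 and 76 of all genes were called, against 340, 94, 219 and 250 in the main fits. Without the filter the count was 0 for MΦs at 1wk WD and 0 for ECs, beside 11 and 27 of all genes. With only the 2 groups compared, MΦs had 0 under Dox and 1 after withdrawal, beside 38 and 49 of all genes. Leaving out single samples gave 0 to 2 for MΦs after withdrawal and 1 to 7 for ECs. Under Dox the MΦs had 2 samples, so no count is given for fits without either, and without No Dox replicate 1 it was 2. The cause of these changes was not tested. Replicate numbers did not pair samples (correlations of same-numbered samples from -0.52 to 0.4 over the groups compared). With them as a replicate block, MΦs had 0 genes under Dox and 1 after withdrawal, and ECs had 9, beside 3, 43 and 283 of all genes. Over the named genes, 7599 values kept direction and call, 132 lost the call, 68 gained it and 3 reversed. Since depth is unknown, the counting error of low scores could not be given.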
